A study of Homo sapiens with 6 samples.

Results

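The antiapoptotic BCL2 proteins and the pore-forming effectors BAX, BAK and BOK were examined at the transcript level in THP-1 cells, a monocytic line derived from an acute leukemia that carries the MLL::AF9 fusion. The group comprised the 8 genes BCL2, BCL2L1, BCL2L2, MCL1, BCL2A1, BAX, BAK1 and BOK, taken by gene name from the 33981 genes of the deposited table. All 8 were found and all 8 were among the 19182 genes that passed the filter on low counts. According to the labels, cells received a lentiviral vector with a scrambled shRNA (3 samples, named C1, C3 and C4) or with an shRNA against NFIC (3 samples, N1, N2 and N3). GFP-positive cells were sorted 4 days after infection for bulk sequencing of mRNA. The methods describe the control as a vector carrying GFP alone, whereas the study's results call it scrambled. The control sample names given there differ in part from those of the labels. Groups and samples are called here as in the labels. The NFIC hairpin is named in the study as sh494, with no second hairpin in these samples. No source says whether the replicates were separate cultures, so p-values measure the spread between these samples, which may be technical.

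BCL2 family proteins set the threshold of the mitochondrial pathway of apoptosis. The antiapoptotic members, sometimes called guardians, hold BAX and BAK and the activating BH3-only proteins in a groove on their surface. When BH3-only proteins such as BIM (BCL2L11) or BID outweigh the guardians, BAX and BAK assemble into pores in the outer mitochondrial membrane and cytochrome c is released. In acute myeloid leukemia BCL2 is the target of venetoclax, and MCL1 is a guardian on which many myeloid cells depend.

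The hairpin sequence is shown because it is the agent that separates the groups. The NFIC target of sh494, written 5′ to 3′ in sense orientation, has in capitals the stretch that pairs with bases 2 to 8 of the guide strand.
sh494 target: gatggacaagtcaCCATTCAa
The 21 bases had 0 mismatches to NFIC transcripts, whereas the best match in any annotated transcript of the 8 genes had between 7 mismatches (BCL2) and 9 mismatches (BAX and BOK). The capitalized stretch occurred in 1 of the 8 canonical transcripts, that of BAK1, which held 1 copy. It occurred in 20.5% of 19701 canonical protein-coding transcripts in GENCODE release 44. The NFIC mRNA itself was at 42.1, 41.4 and 42.2 CPM (counts scaled by library size to a common unit with TMM factors) in the scrambled replicates and at 19.4, 22.3 and 21.4 CPM after knockdown.

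The libraries held between 20369543 and 24809720 counts, and the detection floor of 3 counts equalled 0.121 to 0.147 CPM (counting error only). All 7 myeloid markers examined were present, at a summed level of 1228.5 to 1356 CPM with scrambled shRNA and 1428 to 1602 CPM with NFIC shRNA. They did not move together. LYZ, ITGAM and CD14 rose (log2 fold changes of 0.72, 0.99 and 0.65). CD68, CD33 and CSF1R fell (log2 fold changes of -1.01, -0.97 and -0.59), and SPI1 did not pass. LYZ was the most abundant of the 7 markers. Without it the sum was 728 to 753 CPM in the scrambled libraries and 567 to 599 CPM after knockdown, the opposite direction. Of 7 markers of other cell types, CD3E, MS4A1 and PF4 were not analysed here, HBA1 had 1 count in 1 library, and the summed level of the 4 markers analysed was 6.93 to 8.59 CPM and 2.96 to 4.03 CPM. The part of these markers in the results was not tested. The share of counts on mitochondrially encoded genes was 3.54% to 3.71% with scrambled shRNA and 3.72% to 4.11% with NFIC shRNA.

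With NFIC shRNA 3 of the 8 genes rose and 3 fell in edgeR's quasi-likelihood test (Benjamini-Hochberg adjusted p under 0.05 over all genes tested), whereas 59.9% of all genes tested passed, 29.6% upward and 30.3% downward. MCL1, BCL2L1 and BAX were higher and BCL2, BCL2L2 and BAK1 were lower. BCL2A1 and BOK, the members with the fewest reads, did not pass. The median log2 fold change of the 8 genes was -0.022 against -0.011 for all genes tested, and the median of their absolute values was 0.26 against 0.37. The 2 groups of libraries did not overlap for 6 of the 8 genes, a property shared by 65.2% of all genes tested. The p-values of BAX, BCL2L2 and BAK1 lay near the threshold, whereas those of MCL1, BCL2 and BCL2L1 did not. Because the samples are bulk RNA, fewer cells of a type and less RNA per cell cannot be told apart.

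**Figure D1:**
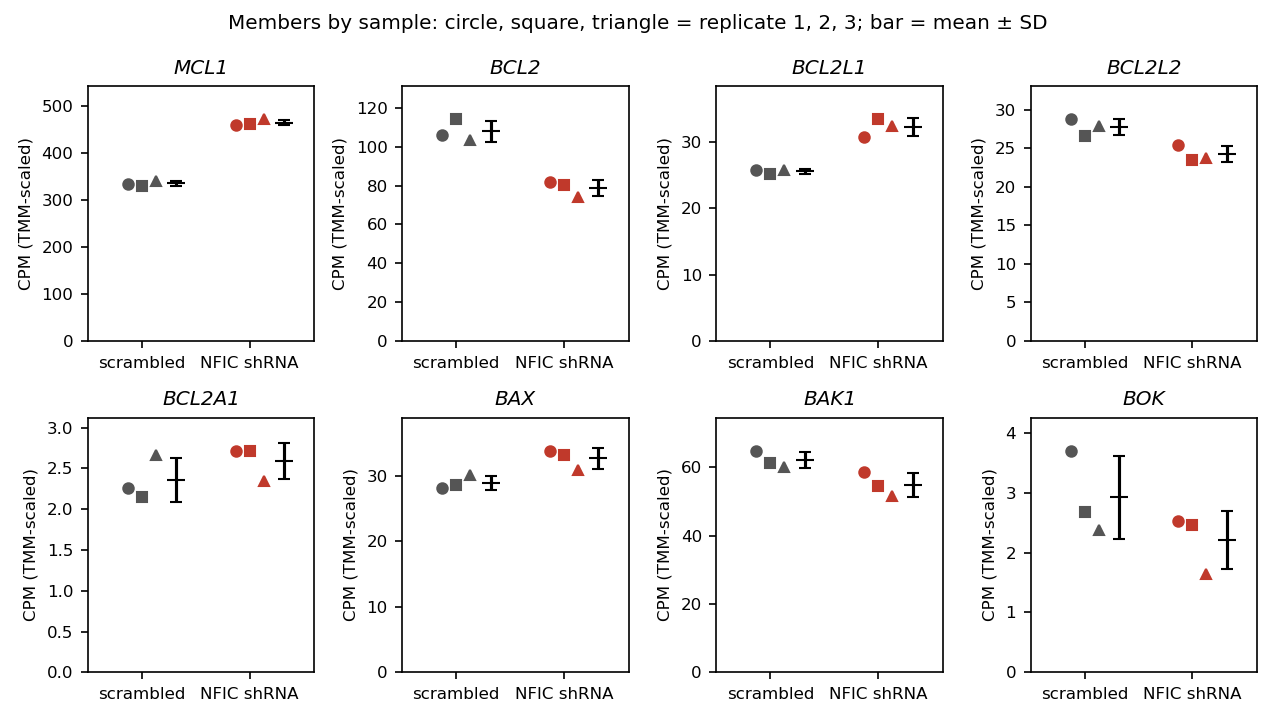
TMM-scaled CPM of each of the 8 genes in the 3 scrambled (grey) and 3 NFIC shRNA (red) libraries, with mean ± SD beside each group and every axis starting at 0. The groups do not overlap for MCL1, BCL2, BCL2L1, BCL2L2, BAX and BAK1, and overlap for BCL2A1 and BOK.

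MCL1 (ENSG00000143384) encodes a short-lived guardian that binds BAK and several BH3-only proteins. It lies on chromosome 1 of GRCh38 from 150560895 to 150579738 on the minus strand. Its level was 335, 331 and 341 CPM in scrambled replicates 1 to 3 and 461, 463 and 472 CPM in the NFIC shRNA replicates. Every NFIC shRNA library was above every scrambled library, and the SD within either group was small beside the gap. The mean rose from 336 ± 5.41 to 465 ± 6.07 CPM (SD, n = 3 each), a fold change of 1.39 and a log2 fold change of 0.47 (standard error 0.046, 95% interval 0.37 to 0.57, adjusted p = 1.33e-07 from edgeR). Of all genes tested, 40.0% had a log2 fold change of at least this size in either direction. In the annotation 5.27% of its exon bases are shared with ADAMTSL4-AS1, a non-coding gene on the same strand, which fell from between 27.4 and 32.4 to between 10.2 and 15.1 CPM. Counts per gene do not separate the long antiapoptotic MCL1 transcript from its shorter splice forms.

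BCL2 (ENSG00000171791), the founding member and the target of venetoclax, lies on chromosome 18 from 63123346 to 63320128 on the minus strand. Its level was 106, 114 and 104 CPM with scrambled shRNA and 82.0, 80.1 and 73.9 CPM with NFIC shRNA. The lowest scrambled library was above the highest NFIC shRNA library, and the highest of all was scrambled replicate 2. The mean fell from 108 ± 5.49 to 78.7 ± 4.23 CPM (SD, n = 3 each), a fold change of 0.728 and a log2 fold change of -0.46 (standard error 0.058, 95% interval -0.58 to -0.33, adjusted p = 3.04e-06 from edgeR). None of its exon bases in the annotation is shared with another gene. BCL2 and MCL1, the 2 members with the most reads, thus moved by similar amounts in opposite directions.

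BCL2L1 (ENSG00000171552), which encodes BCL-XL, lies on chromosome 20 from 31664452 to 31723989 on the minus strand. It was at 25.8, 25.1 and 25.8 CPM in the scrambled libraries and at 30.8, 33.4 and 32.5 CPM in the NFIC shRNA libraries, so the groups did not overlap. It rose by 1.26-fold, a log2 fold change of 0.33 (standard error 0.070, 95% interval 0.19 to 0.48, adjusted p = 5.44e-04 from edgeR). The antisense gene ABALON covers 41.3% of its exon bases, and neither the strand setting nor the treatment of reads on more than 1 gene is given in the sources used here, so reads of the pair cannot be told apart there. ABALON was at 11.5 to 13.2 CPM with scrambled shRNA and 13.8 to 15.3 CPM with NFIC shRNA, a log2 fold change of 0.21 that did not pass (adjusted p = 0.0624 from edgeR). Gene counts also do not separate BCL-XL from the proapoptotic splice form BCL-XS.

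BCL2L2 (ENSG00000129473), which encodes the guardian BCL-W, lies on chromosome 14 from 23298790 to 23311751 on the plus strand. Its level was 28.8, 26.6 and 27.9 CPM with scrambled shRNA and 25.4, 23.5 and 23.8 CPM with NFIC shRNA. The groups did not overlap, although NFIC shRNA replicate 1 lay only just under scrambled replicate 2. The log2 fold change was -0.20 (standard error 0.073, 95% interval -0.35 to -0.041, adjusted p = 0.0288 from edgeR). Adjusted p was above 0.05 in 6 of 14 alternatives. It was 0.106 with DESeq2, 0.0522 without the filter, 0.0860 without NFIC shRNA replicate 2, 0.0642 without NFIC shRNA replicate 3, 0.0927 without scrambled replicate 1 and 0.0702 without scrambled replicate 3. Other genes share 24.8% of the BCL2L2 exon bases, among them PPP1R3E (6.51%) and HOMEZ (3.08%) on the opposite strand. The readthrough gene BCL2L2-PABPN1 shares 16.8% of them on the same strand. That gene was at 140, 140 and 143 CPM and at 99.1, 92.6 and 86.2 CPM, a log2 fold change of -0.60 (adjusted p = 7.29e-08 from edgeR). PABPN1, its downstream partner, shares exons with it and had -0.63 (adjusted p = 1.29e-07 from edgeR). The 2 changes are therefore not separate results. How far reads of PABPN1 entered the count of the readthrough gene was not tested. Nor was it tested how far reads of the readthrough transcript entered the BCL2L2 count.

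BCL2A1 (ENSG00000140379), encoding BFL1, an NF-kappaB target of immune cells, lies on chromosome 15 from 79960892 to 79971196 on the minus strand. It was sparsely covered, with 49, 53 and 57 raw counts in the scrambled libraries and 56, 63 and 54 in the NFIC shRNA libraries. The groups overlapped. The log2 fold change was 0.14 with a 95% interval from -0.26 to 0.53 (adjusted p = 0.544 from edgeR). That interval holds values of either sign, so the result does not show that the gene was unchanged.

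BAX (ENSG00000087088), the effector that moves from the cytosol to the mitochondrion on activation, lies on chromosome 19 from 48954815 to 48961798 on the plus strand. Its level was 28.1, 28.6 and 30.1 CPM with scrambled shRNA and 33.8, 33.2 and 30.9 CPM with NFIC shRNA. The groups did not overlap, but scrambled replicate 3 and NFIC shRNA replicate 3 lay close together. The log2 fold change was 0.17 (standard error 0.070, 95% interval 0.027 to 0.32, adjusted p = 0.0404 from edgeR). The call was lost in 10 of 14 alternatives, among them the fit with the replicate number as a block (adjusted p = 0.0704), DESeq2 (0.0674), upper-quartile normalization (0.160) and 5 of the 6 fits without 1 library. Leaving out NFIC shRNA replicate 3 kept it (0.0155), whereas leaving out NFIC shRNA replicate 1 or 2 gave 0.131 and 0.0840, and leaving out scrambled replicate 1, 2 or 3 gave 0.144, 0.0950 and 0.0534. DESeq2 called 46% of the 22122 genes it tested.

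BAK1 (ENSG00000030110), the effector that sits in the outer mitochondrial membrane at rest, lies on chromosome 6 from 33572547 to 33580293 on the minus strand. It was at 64.8, 61.2 and 60.2 CPM in the scrambled libraries and at 58.6, 54.5 and 51.5 CPM in the NFIC shRNA libraries. The groups did not overlap, and the gap between them was narrower than the range within the NFIC shRNA group. It fell by 0.18 on the log2 scale (standard error 0.063, 95% interval -0.31 to -0.047, adjusted p = 0.0206 from edgeR). Without NFIC shRNA replicate 3 adjusted p was 0.0729, without scrambled replicate 1 it was 0.0855, and with DESeq2 it was 0.0611. The other 11 alternatives kept it under 0.05. GGNBP1, a pseudogene on the opposite strand, shares 4.11% of the BAK1 exon bases. It had a log2 fold change of -0.14 and did not pass (adjusted p = 0.390 from edgeR).

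BOK (ENSG00000176720), an effector whose protein is kept low by degradation, lies on chromosome 2 from 241551424 to 241574131 on the plus strand. It had 80, 66 and 51 raw counts in the scrambled libraries and 52, 57 and 38 after knockdown. The groups overlapped, and within each group the highest library stood well above the lowest. The log2 fold change was -0.40 with a standard error of 0.22 (adjusted p = 0.121 from edgeR). Its antisense partner BOK-AS1 covers 7.50% of its exon bases and had between 1 and 9 counts in every library. BOK and BCL2A1 missed the threshold in all 14 alternatives.

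Values per length are needed to compare genes, and the deposited FPKM values were used for this. In the scrambled libraries MCL1 was highest at 75.9 ± 1.37 FPKM, followed by BAK1 at 27.7 ± 0.997, BAX at 11.0 ± 0.434, BCL2 at 9.07 ± 0.458, BCL2L1 at 7.63 ± 0.125, BCL2L2 at 6.55 ± 0.246, BCL2A1 at 2.79 ± 0.323 and BOK at 1.08 ± 0.251 FPKM (SD, n = 3). The 3 libraries of each gene did not overlap those of its neighbour in this order. With NFIC shRNA the order was MCL1 at 106 ± 2.09, BAK1 at 24.8 ± 1.46, BAX at 12.6 ± 0.510, BCL2L1 at 9.71 ± 0.440, BCL2 at 6.68 ± 0.316, BCL2L2 at 5.78 ± 0.222, BCL2A1 at 3.09 ± 0.240 and BOK at 0.822 ± 0.177 FPKM, again without overlap between neighbours. MCL1 exceeded 96.9% of the genes tested in the scrambled libraries, BOK 23.1%.

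BCL2 and BCL2L1 exchanged places. The ratio of BCL2 to BCL2L1 FPKM was 1.16, 1.28 and 1.13 in the scrambled libraries and 0.751, 0.675 and 0.642 after knockdown. This pair was picked after its values were seen and was not tested. The order within a library depends on the length used. The table gives BAX a length of 2587 bases, but its canonical transcript has 795 bases, and with canonical lengths BAX (35.9 on that scale) stood above BAK1 (28.3) in the scrambled group with the same order in the NFIC shRNA group (40.98 and 25.2). With those lengths the BCL2 to BCL2L1 ratio was 1.503 to 1.70 with scrambled shRNA and 0.852 to 0.998 with NFIC shRNA.

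**Figure D2:**
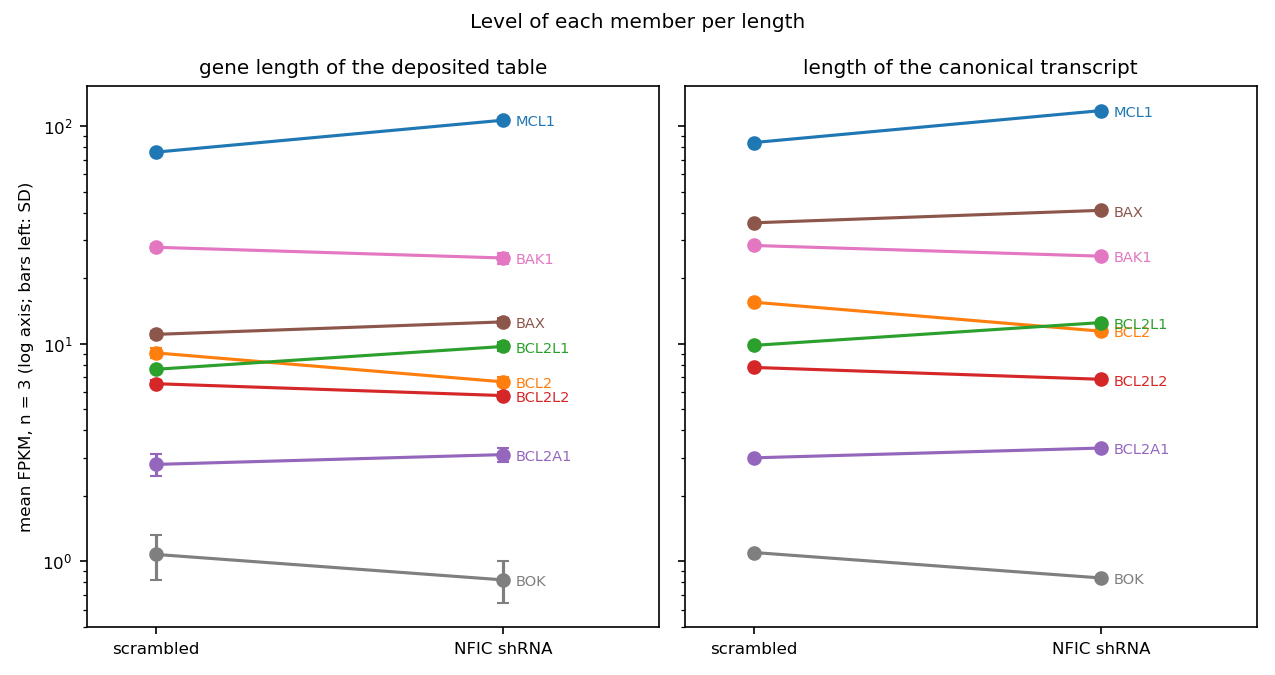
Mean FPKM (log axis) of each gene with scrambled and NFIC shRNA, from the gene lengths of the deposited table (left, bars are SD, n = 3) and rescaled to canonical transcript lengths (right). The BCL2 and BCL2L1 lines cross in both panels, and BAX and BAK1 change places between the panels.

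The composition of the guardian pool was described as the share of each gene in the summed FPKM of the 5 antiapoptotic genes. MCL1 made up 74.4% ± 0.220 of it with scrambled shRNA and 80.8% ± 0.595 with NFIC shRNA (SD, n = 3). BCL2 made up 8.91% ± 0.563 and 5.08% ± 0.302, and BCL2L2 6.43% ± 0.219 and 4.39% ± 0.208. These shares depend on the length scaling. As shares of summed counts BCL2 held 21.6% and 13.05% and MCL1 67.2% and 77.2%, and with canonical transcript lengths BCL2 held 12.9% and 7.53% and MCL1 69.9% and 77.5%. BCL2L1, which rose in CPM, held 7.49% ± 0.0737 and 7.38% ± 0.292, values that overlapped between the groups. The summed FPKM of the guardians went from 102 ± 1.54 to 132 ± 1.66. Among the effectors BAX accounted for 27.7% ± 1.57 and 33.0% ± 0.644 and BAK1 for 69.6% ± 1.03 and 64.8% ± 0.620, whereas with canonical lengths BAX was the larger, at 55.0% and 61.1% against 43.3% and 37.6% for BAK1. The effector sum was 39.8 ± 0.918 and 38.2 ± 2.09 FPKM, with overlapping libraries.

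Ratios within a library do not depend on how libraries are scaled. The count ratio of BCL2 to BAX was 3.78, 3.999 and 3.45 in the scrambled libraries and 2.43, 2.41 and 2.39 in the NFIC shRNA libraries. All NFIC shRNA libraries lay below all scrambled libraries, and the mean log2 ratio differed by -0.63. The count ratio of BCL2 to MCL1 was 0.317, 0.345 and 0.304 against 0.178, 0.173 and 0.157, a log2 difference of -0.93. The ratio of summed guardian to summed effector FPKM moved the other way, from 2.48, 2.56 and 2.63 to 3.24, 3.43 and 3.70, a log2 difference of 0.43. Without length scaling that difference was 0.34, and with canonical transcript lengths 0.30. The guardian sum was mostly MCL1, which went from 75.9 to 106 FPKM while the sum went from 102 to 132 FPKM. Of the other guardians, BCL2L1 and BCL2A1 were higher and BCL2 and BCL2L2 lower in mean FPKM. The ratio without MCL1 was not tested. MCL1 alone had already separated the groups, so separation of the guardian to effector ratio is no result about the guardians as a group. The count ratio of BCL2L11 to BCL2 was 0.666, 0.624 and 0.700 against 1.95, 1.98 and 2.27, a log2 difference of 1.64. For each of the 4 ratios the groups did not overlap. In each count ratio both genes had already separated the groups in opposite directions, so separation of the ratio follows and adds no further result. The exact two-sided permutation test gave p = 0.1 for each ratio (adjusted p = 0.1 over the 4). That is the smallest p that 3 against 3 libraries can give, so none could pass 0.05.

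The partners of these proteins were taken from lists of known pathway genes. Those lists were chosen with earlier results of these data known, so their counts are a description only. Of 8 BH3-only genes, 7 were tested, 3 rose and 3 fell, with a median log2 fold change of 0.12, where 59.9% of all genes tested passed (29.6% higher and 30.3% lower). BCL2L11, which encodes the activator BIM that all guardians bind, was at 70.6, 71.3 and 72.7 CPM in the scrambled libraries and at 160, 158 and 168 CPM in the NFIC shRNA libraries. No other gene on these lists had a larger absolute log2 fold change than its 1.18 (adjusted p = 1.11e-11 from edgeR). BAD and BID also rose (0.41 and 0.36). BMF, BBC3 (PUMA) and PMAIP1 (NOXA, which binds MCL1) fell, with log2 fold changes of -0.52, -0.47 and -0.22. BIK was at 0.12 and did not pass, and HRK, with at most 3 counts in a library, was not tested.

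Of 6 genes that act once the pore has formed, 5 rose and 1 fell (all genes tested: 29.6% and 30.3%), with a median log2 fold change of 0.29. CASP9, DIABLO (SMAC) and APAF1 rose, with log2 fold changes of 0.47, 0.34 and 0.27, as did HTRA2 and the caspase inhibitor XIAP (0.31 and 0.20). CYCS, which encodes cytochrome c, fell from between 151 and 165 to between 121 and 130 CPM, a log2 fold change of -0.32 (adjusted p = 5.41e-05 from edgeR).

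Of 5 genes for docking and turnover of the members, 4 rose and 1 fell (all genes tested: 29.6% and 30.3%), with a median log2 fold change of 0.29. The ubiquitin ligase genes FBXW7, HUWE1 and MARCHF5, whose products act on MCL1 protein, rose with log2 fold changes of 0.63, 0.29 and 0.22, and USP9X, which encodes a deubiquitinase of MCL1, rose with 0.47. VDAC2, a mitochondrial channel that holds BAK and BAX at the membrane, fell from 107, 109 and 100 CPM to 80.3, 78.4 and 77.8 CPM, a log2 fold change of -0.42 (adjusted p = 2.94e-06 from edgeR). Of 5 further homologs, BCL2L12 rose with 0.43, BCL2L13 did not pass at -0.062, and BCL2L10, BCL2L14 and BCL2L15 were under the filter with at most 12 counts in a library. Over all 24 pathway genes, 20 were tested, 13 rose and 5 fell, against 29.6% and 30.3% of all genes tested. Because earlier results were known when the lists were chosen, this excess of rises is not independent of these data.

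**Figure D3:**
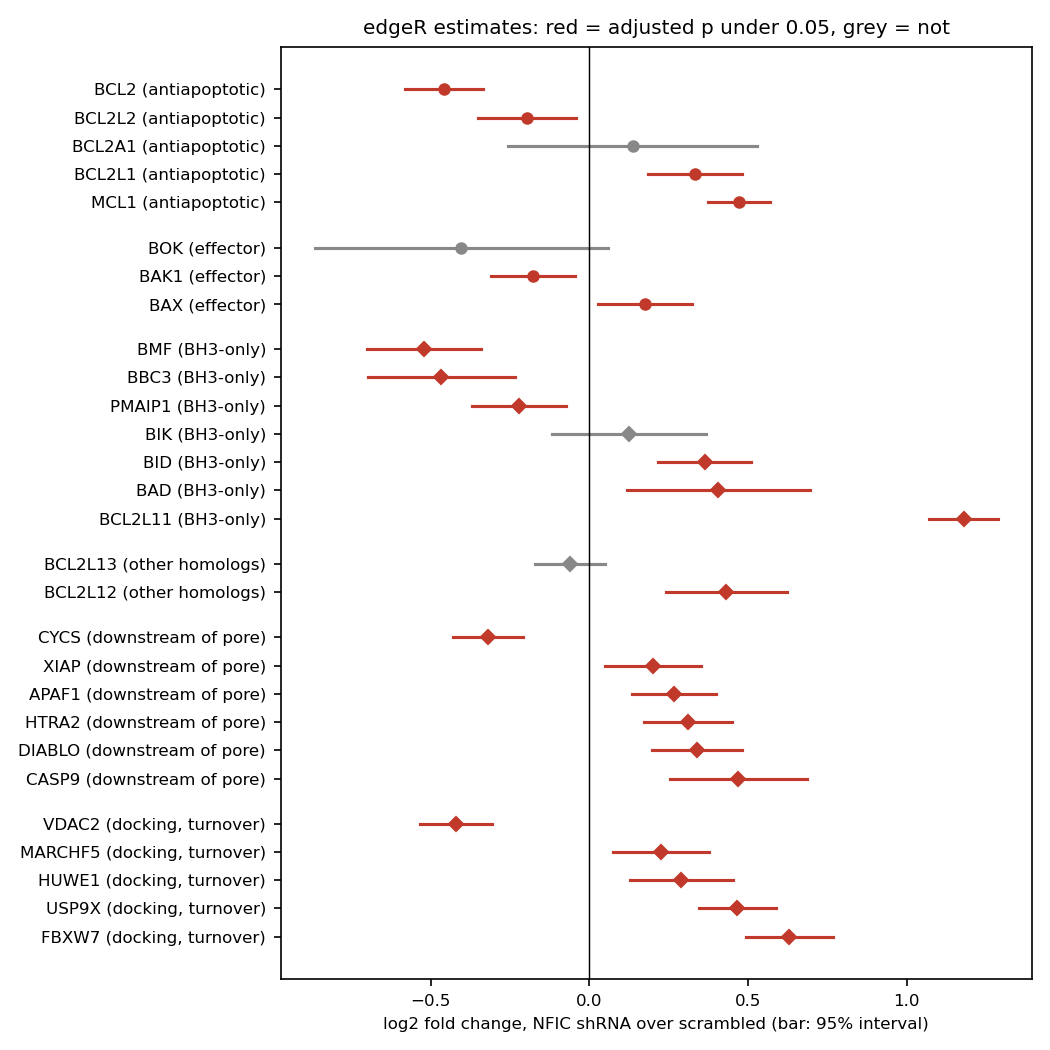
edgeR log2 fold changes of NFIC shRNA over scrambled with 95% intervals for the 8 genes (circles) and the tested pathway genes (diamonds), red where adjusted p was under 0.05. The estimates of the members lie between -0.46 and 0.47, and BCL2L11 at 1.18 stands farthest from 0.

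Because NFIC is a transcription factor, promoters were searched for its recognition letters. RefSeq promoter sequences (GRCh38.p14, 250 bases before to 50 after a start site) were matched for 6 of the 8 genes, with 2 start sites for BCL2L1. MCL1 and BCL2L2 had no entry. The full palindrome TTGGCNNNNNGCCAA, read on both strands, was in none of the 7 promoters and in 0.0285% of 35116 promoters. Its core TTGGC, on either strand, occurred once each in a BCL2L1 promoter and in the BOK promoter and in 45.6% of all promoters. The other BCL2L1 promoter held no core. The windows around both matches lie inside the annotated genes, whose 5′ ends are at 31723989 (BCL2L1) and 241551424 (BOK). Both windows are shown with the core in capitals, here as its reverse complement, at position -72 and position -19 from the start site used.
BCL2L1, GRCh38.p14, chr20:31722918-31722958, minus strand: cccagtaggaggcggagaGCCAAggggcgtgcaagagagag
BOK, GRCh38.p14, chr2:241558708-241558748, plus strand: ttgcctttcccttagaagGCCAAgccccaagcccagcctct
The presence of these letters does not show binding, and their absence from a window of this length says nothing about the factor.

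The BAX promoter held 4 copies of CACGTG, the E-box read by MYC, MAX and USF proteins, against 4 or more copies in 0.0142% of all promoters (5 of 35116) and at least 1 copy in 7.26%. This motif was searched after the sequence had been seen. The other promoters of the group held 0 copies. The copies, in capitals, start at positions -138, -93, -45 and -14 from the start site.
BAX, GRCh38.p14, chr19:48954625-48954924, plus strand: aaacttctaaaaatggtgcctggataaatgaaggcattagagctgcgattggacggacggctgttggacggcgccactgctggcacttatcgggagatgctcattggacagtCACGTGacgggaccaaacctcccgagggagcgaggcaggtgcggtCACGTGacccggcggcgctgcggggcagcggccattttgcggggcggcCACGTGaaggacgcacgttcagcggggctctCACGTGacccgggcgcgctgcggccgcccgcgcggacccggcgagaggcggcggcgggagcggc

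The genes whose log2 CPM over the 6 libraries was most like each member were named as a description. MCL1 was followed most closely by IST1 and FMC1-LUC7L2 (Pearson r = 0.99997 and 0.9996), BCL2 by SLC25A39 and SERINC2 (0.999 and 0.998), and BCL2L1 by LSM14B and FLOT1 (0.998 for both). For BAX they were IFT27 and C1orf198 (0.996 and 0.994), for BCL2L2 EXTL2 and PWWP2B (0.994 and 0.989), and for BAK1 YIPF2 and ZC3H10 (0.991 and 0.987). The 6 points share libraries and fall into 2 groups, and 10136 genes were searched for each member, and r is given without a test.

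The dependence on processing differed among the members. MCL1, BCL2 and BCL2L1 had adjusted p under 0.05 in all 14 alternatives, with log2 fold changes of 0.41 to 0.49, -0.51 to -0.37 and 0.28 to 0.37. No member changed sign in any alternative.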

How the data were processed

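THP-1 cells with scrambled or NFIC shRNA (3 samples each) were sequenced as paired-end bulk mRNA. Per the methods, trimming was by Trim Galore, alignment to GRCh38 by STAR and assignment to genes by featureCounts, and the counts deposited by the authors are raw. The deposited normalized signal is these counts after scaling by DESeq2 size factors, with a mean over samples, and the authors derived FPKM from that signal and each gene's length. Columns of the authors' own comparison (p-value, Wald score, log2 fold change and its error) were left out. A step for duplicate reads is named but not described.

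Counts were analysed with edgeR 4.0.16 in R 4.3.3 (TMM, default filter, robust quasi-likelihood test, no block) over 19182 genes, with DESeq2 1.42.0 as an alternative. The standard error is the log2 fold change over the square root of F. Positions and exon overlaps are from GENCODE release 44 (GRCh38). Replicate numbers are those of the labels' descriptions, so that C1, C3 and C4 are scrambled replicates 1, 2 and 3. Deviations of samples sharing such a number correlated between -0.0862 and 0.0563, and the numbers were not taken as pairs. By sample name, C1 with N1 gave 0.0563 and C3 with N3 gave 0.145, the highest of all combinations. Pairs of replicates differed by more than sampling noise (chi-square per degree of freedom 1.99 to 7.91). Named genes were all 8 members, fixed pathway lists, NFIC, the 2 genes most like each member that passed (protein-coding, mean log2 CPM of at least 3), and, added later, genes sharing exons with a member or, for PABPN1, with the readthrough gene. The members and lists were chosen with earlier results of these data known. Some genes of the pathway and marker lists are not reported here and were left out of the counts. The test was tried on simulated data in which far fewer genes changed than were called here. That trial therefore cannot speak for calls at such a share, and its outcome is not reported here.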

Additional observations from a re-analysis of the deposited data

How the results depend on the processing

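Of 14 alternatives, none moved the count of 11486 genes past the threshold by more than 1.5 times (10176 with DESeq2, 10983 with the replicate number as a block, 10443 to 11300 without 1 library each). The log2 fold change of BAX lost its call with upper-quartile normalization (0.12), no filter on low counts (0.18), at least 10 counts in every sample (0.16), the replicate block (0.17) and DESeq2 (0.19), that of BCL2L2 with no filter (-0.19) and DESeq2 (-0.18), and that of BAK1 with DESeq2 (-0.16). Upper-quartile normalization put the median of all genes at -0.068 in place of -0.011. Apart from these the causes were not tested. Without 1 library each the values were 0.15 to 0.22 for BAX (call lost in 5 of 6 fits), -0.23 to -0.17 for BCL2L2 (4 of 6) and -0.22 to -0.13 for BAK1 (2 of 6). The replicate block changed no other member's call. The log2 difference of the BCL2 to MCL1 ratio was -0.82 and that of BCL2L11 to BCL2 1.52 without C3 and N3 together, an alternative chosen after seeing the data, and that of summed guardians to summed effectors was 0.34 with summed counts and 0.30 with canonical lengths, also added later. Without 1 library each these 3 were -0.97 to -0.87, 1.57 to 1.68 and 0.38 to 0.48. In the replicate block each ratio difference equals the unpaired one (p = 0.25 in the exact paired test, its smallest). The depth limits BCL2A1 and BOK, with at most 80 counts in a library.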
